A study of Mus musculus with 18 samples.

Results

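The 8 genes described here were taken from 46725 in the count tables. They are 6 that had been picked because treated mice differed from both WT and HSA-LR mice (Txlnb, Rpn1, Stum, Tmem236, Stam and Cab39) and 2 paralogs of Txlnb added for comparison (Txlna and Txlng). The 6 were selected on the measured gene and exon counts of the treated mice against both other groups, so the contrasts of treated mice with HSA-LR and with WT mice are given as a description, with no test, for the 6 picked genes. Tests are given for the HSA-LR against WT contrast, for the 2 muscles of WT mice, for the paralogs and for genes listed around the 8. The HSA-LR and WT libraries also entered the pick, so tests of the 6 picked genes on them are not independent of it.

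The 18 RNA libraries came from 3 WT mice, 3 HSA-LR mice and 3 HSA-LR mice given Pip6a-PMO, each with a gastrocnemius and a quadriceps library. All mice were of the FVB strain and 20 weeks old. HSA-LR mice carry a human skeletal actin transgene whose muscle transcript contains an expanded CUG repeat, and the treated mice carry it too. Pip6a-PMO is a morpholino antisense oligomer of CAG triplets, which pair with CUG, joined to a cell-penetrating peptide. The treatment field of the labels gives intravenous injection of Pip6a-PMO or saline (160 µL per mouse), whereas their agent field lists WT and HSA-LR mice as untreated. No group received a peptide conjugate with another sequence, so the peptide, the oligomer chemistry and the CAG sequence cannot be told apart.

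Taxilins are coiled-coil proteins that bind syntaxins, membrane proteins of vesicle fusion. Txlna and Txlng are expressed widely, whereas Txlnb is the taxilin of skeletal and cardiac muscle. The other picked genes have separate roles. Rpn1 encodes ribophorin I, a subunit of the oligosaccharyltransferase that attaches sugar chains to proteins in the endoplasmic reticulum. Stam encodes an adaptor of the ESCRT-0 complex, which sorts ubiquitinated cargo on endosomes, and Cab39 encodes MO25α, a scaffold of the kinase LKB1. Stum is named after a fly gene of mechanosensory neurons, and Tmem236 encodes a membrane protein.

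Values are counts of read pairs on exon bins, the stretches of exon between annotated exon ends, summed per gene and given as CPM, the count scaled to a common library total after TMM normalisation. A pair that spans several bins adds 1 count to each. Library totals ran from 98916844 to 143135976 counts. All 6 skeletal muscle markers were detected in every library. Their summed level was 186291 to 219018 CPM in WT, 168550.5 to 181401 in HSA-LR and 188617 to 266849.6 in treated gastrocnemius, and 200013 to 222084, 155690.5 to 186145 and 196309 to 245387 CPM in the quadriceps. The HSA-LR libraries thus lay below those of both other groups in each muscle, and the part of this difference in the results was not tested. Treated gastrocnemius mouse 3 stood apart in 5′ to 3′ coverage, with a median ratio of 0.207 over 5548 genes against 0.267 to 0.288 in the other gastrocnemius libraries and 0.266 to 0.300 in the quadriceps. Its part in the results was not tested beyond the values given without it. The labels call WT mouse 2 female and the other mice male, but 4 Y-linked genes summed to 153.4 and 188.1 CPM in the 2 libraries labelled WT mouse 2 and to 1.14 and 1.43 CPM in those labelled WT mouse 3, so values without each of these mice are given for the Txlnb call between HSA-LR and WT mice. Slow fibre markers (7 genes) summed to 85.2 to 524.1 CPM in WT and HSA-LR quadriceps and to 105 to 2010 CPM in treated quadriceps, and erythroid markers (5 genes) to 79.4 to 329.5 and 356.5 to 700.7 CPM. In the gastrocnemius the slow fibre sum was 2555 to 5213 CPM in WT, 1822 to 3931 in HSA-LR and 2568 to 14316 in treated mice, and the erythroid sum was 775 to 3867, 507 to 678 and 905 to 3152 CPM, so the HSA-LR libraries were the lowest in erythroid markers there. The part of these cells in the results was not tested. In whole muscle, a change in the number of cells of a type and a change in RNA per cell cannot be told apart.

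The sequences below are shown because the oligomer is made of CAG triplets, which pair with the CUG that a CTG run encodes. The longest uninterrupted CTG run in the annotated transcripts of each gene was searched on the sense strand (GENCODE M21, build GRCm38), and the windows show the runs of at least 6 triplets, with the run in capitals.
Txlnb, 9 CTG: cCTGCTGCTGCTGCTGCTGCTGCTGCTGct
Cab39, 7 CTG: ctagCTGCTGCTGCTGCTGCTGCTGgtggt
Stam, 6 CTG: gtcctcCTGCTGCTGCTGCTGCTGccgctg
The Txlnb run lies at chr10:17796330-17796356 on the plus strand, in the 5′ UTR of Txlnb-201, 74 bases into exon bin 2, and is also in the noncoding retained-intron transcript Txlnb-202. The Cab39 run lies at chr1:85795367-85795387 on the plus strand, in the 5′ UTR of Cab39-201 and within bin 5, a 117-base exon of that transcript alone. The Stam run lies at chr2:14146281-14146298 on the plus strand, 62 bases into bin 30, where it is coding in Stam-202 and in the 3′ UTR of Stam-209, a transcript annotated for nonsense-mediated decay. A run of 4 CTG follows it at chr2:14146302-14146313. The longest run in Rpn1 had 3 CTG (chr6:88084558-88084566, coding, bins 1 and 2). The longest in Txlna, Txlng, Stum and Tmem236 had 2 CTG. Among 15231 genes tested in both muscles, 0.151% held a run of at least 9 CTG, 0.328% of at least 7, 0.670% of at least 6 and 18.3% of at least 3. A run is a description of the sequence, and introns were not searched.

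**Figure D1:**
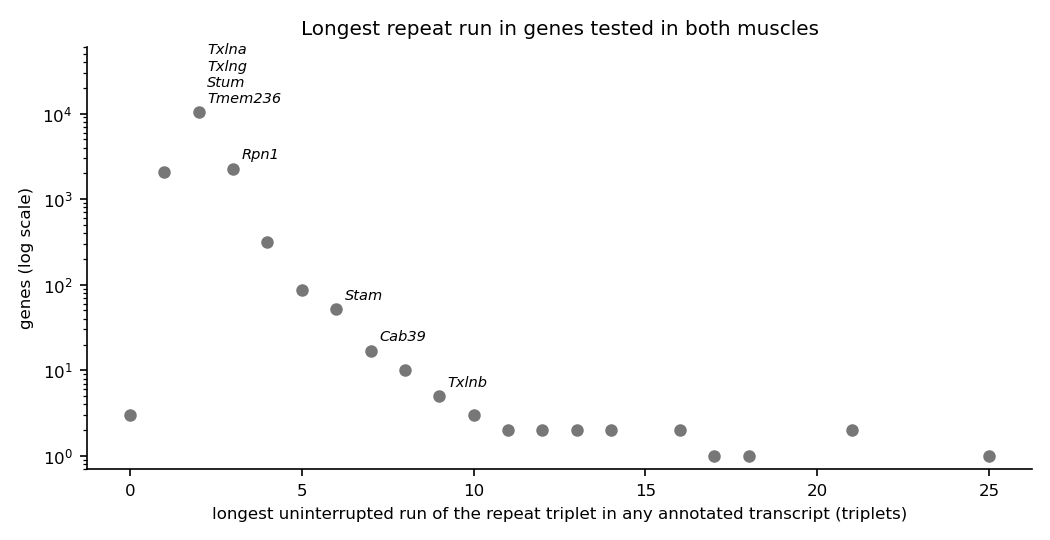
Number of genes (log scale) by the longest uninterrupted CTG run in any of their annotated transcripts (triplets), over the 15231 genes tested in both muscles. Txlnb sits at 9, Cab39 at 7, Stam at 6, Rpn1 at 3 and the other 4 genes at 2.

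Of the 6 picked genes, 4 differed in their gene sums in both muscles. Every treated library lay above every WT and HSA-LR library of its muscle for Txlnb, Tmem236 and Rpn1, and below them for Stum. Stam and Cab39 differed in particular exons. Over all genes tested, 1.71% lay above both groups in the gastrocnemius and 1.83% in the quadriceps, and 2.10% and 2.08% lay below both. Since these genes were picked for that pattern, nothing is read from their count.

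Txlnb (ENSMUSG00000039891.6, chr10:17796226-17845665, plus strand) was several times higher in treated muscle than in either other group, in 11 of its 12 exon bins. In the gastrocnemius the 3 WT mice had 390.8, 420.7 and 407.7 CPM, the 3 HSA-LR mice 348.8, 343.8 and 337.8 CPM, and the 3 treated mice 1845, 2100 and 1620 CPM. In the quadriceps the WT mice had 411.4, 517.4 and 437.4 CPM, the HSA-LR mice 312.9, 302.0 and 333.3 CPM, and the treated mice 1839, 1971 and 2096 CPM. All 6 treated libraries lay above all 12 others, and the 6 HSA-LR libraries lay below the WT libraries of their muscle. The log2 FC of treated against HSA-LR mice was 2.44 ± 0.11 (SE) in the gastrocnemius and 2.64 ± 0.11 in the quadriceps, and that of treated against WT mice was 2.19 ± 0.11 and 2.12 ± 0.11. Leaving out 1 mouse at a time kept the gastrocnemius value against HSA-LR mice between 2.34 and 2.52. Per kilobase of exon, Txlnb already led the 3 taxilins in WT gastrocnemius, at 73.8 ± 2.72 CPM per kb against 4.63 ± 0.26 for Txlna and 1.21 ± 0.03 for Txlng (SD, n = 3).

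**Figure D2:**
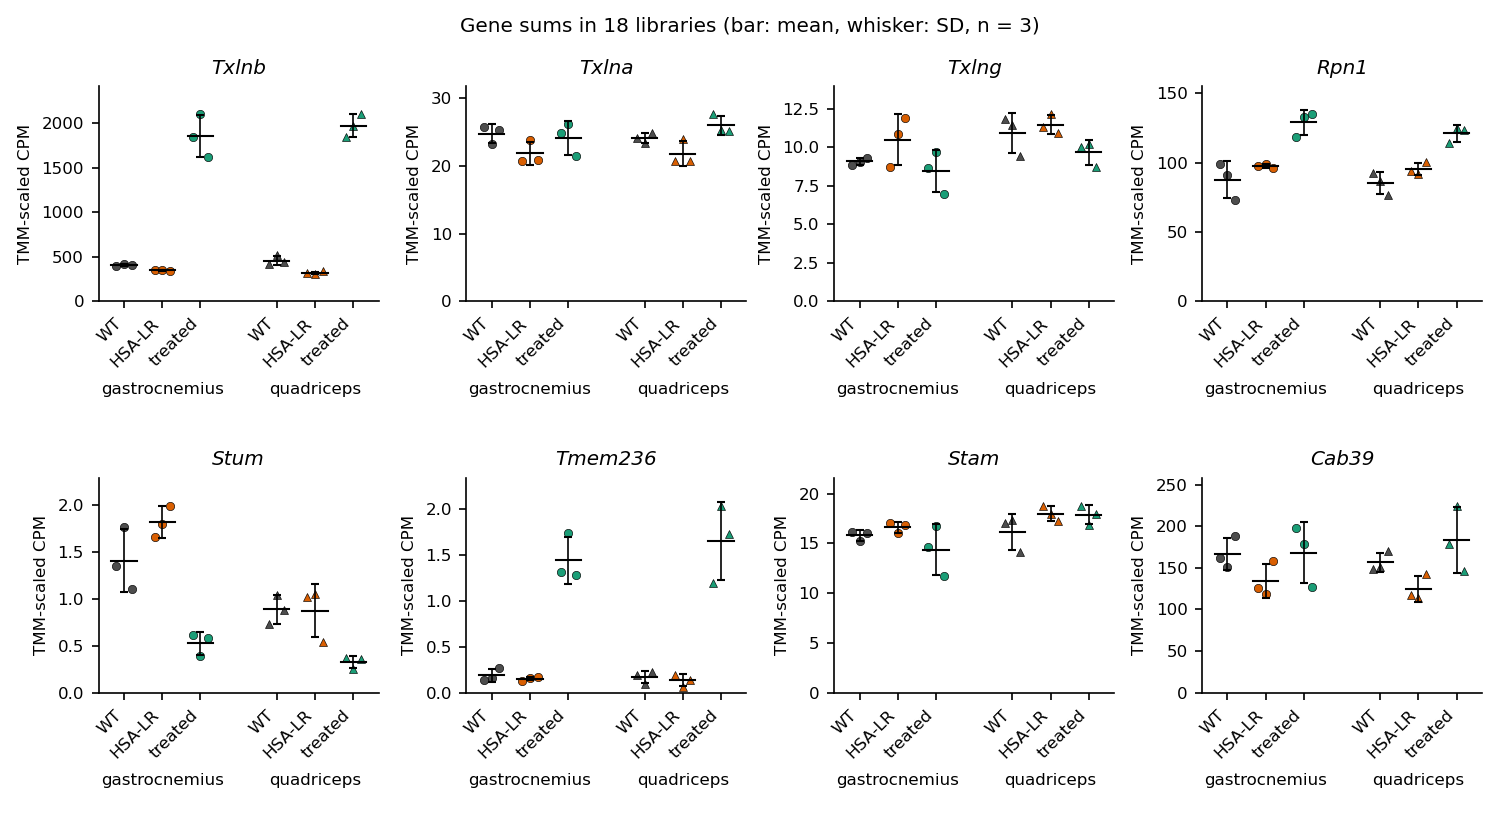
TMM-scaled CPM of each gene (y axes, linear from 0) in the 3 WT, 3 HSA-LR and 3 treated libraries of the gastrocnemius (circles) and the quadriceps (triangles); bars are means and whiskers SD. Txlnb and Tmem236 are higher and Stum lower in every treated library than in any other library of the same muscle, whereas the groups of Stam in both muscles and of Txlna and Txlng in the gastrocnemius overlap. In the quadriceps the treated libraries of Txlna lie above both groups and those of Txlng below HSA-LR.

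Between HSA-LR and WT mice Txlnb differed in the opposite direction. The pick did not name that contrast but used its libraries. In it Txlnb fell by 0.52 on the log2 scale in the quadriceps (SE 0.10, adjusted P = 0.0120, quasi-likelihood test of edgeR, Benjamini-Hochberg over all genes). The skeletal muscle markers given above were also lower in HSA-LR than in WT mice, and their part in this difference was not tested. In the gastrocnemius the log2 FC was -0.25 ± 0.11 (adjusted P = 0.170), and without treated mouse 3, which enters the estimate of the spread, the adjusted P was 0.0645 at a log2 FC of -0.24. The quadriceps value was -0.42 (adjusted P = 0.0312) without WT mouse 2 and -0.55 (adjusted P = 0.0259) without WT mouse 3, and the gastrocnemius value -0.23 (adjusted P = 0.355) and -0.25 (adjusted P = 0.247). None of the other 7 genes passed in either muscle, so 0 of 8 were called in the gastrocnemius and 1 of 8 in the quadriceps, where 15.5% and 20.3% of all genes tested were called. Since the pick used the same libraries, nothing is read from these counts. At an unadjusted P under 0.05 Txlnb alone passed in each muscle, and DESeq2 called 0 and 1 of 8. The log2 FC of the other 7 ran from -0.34 for Tmem236 to 0.36 for Stum in the gastrocnemius and from -0.37 for Tmem236 to 0.16 for Rpn1 in the quadriceps.

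The Txlnb difference was spread along the exons. Of its 12 bins, 11 had at least 100 counts in each muscle, and in all 11 every treated library was above every WT and HSA-LR library on the CPM scale, in both muscles. The fold of the treated over the HSA-LR mean ran from 4.60 in bin 2 to 5.51 in bin 12 in the gastrocnemius and from 4.99 in bin 5 to 6.68 in bin 8 in the quadriceps. Over all genes, 1.49% of exon bins with at least 100 counts lay above both groups in the gastrocnemius and 2.51% in the quadriceps. Bin 2, the 166-base UTR exon that holds the CTG run shown above, had 1249, 1442 and 1501 counts in WT, 1189, 1149 and 993 in HSA-LR and 5396, 6321 and 2855 in treated gastrocnemius. Its share of all Txlnb bin counts was 2.54% ± 0.08 in WT, 2.56% ± 0.07 in HSA-LR and 2.15% ± 0.31 in treated gastrocnemius (SD, n = 3), with the lowest treated share, 1.81%, in mouse 3. In the quadriceps the share was 2.44% ± 0.07, 2.47% ± 0.05 and 2.40% ± 0.14. The largest bin was the last exon, bin 12, with 52.2% ± 0.44 of the counts in WT, 51.4% ± 0.65 in HSA-LR and 52.8% ± 3.14 in treated gastrocnemius.

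Only 2 bins of Txlnb belonged to the retained-intron transcript Txlnb-202 alone, and they differed from each other. Bin 1, the 30 bases before the start of Txlnb-201, held 27 counts over the 3 HSA-LR and 22 over the 3 treated gastrocnemius libraries, and 21 and 23 in the quadriceps. It is the bin of Txlnb that was not higher in treated mice. Bin 5, the intron piece after the exon of bin 4, held 21, 14 and 12 counts in HSA-LR and 141, 51 and 40 in treated gastrocnemius, a fold of 5.10. The predicted gene Gm20655 overlaps the start of Txlnb on the opposite strand, and the libraries were stranded. It had 0.24 ± 0.03 CPM in HSA-LR and 0.34 ± 0.05 in treated gastrocnemius, a log2 FC of 0.52 ± 0.27 (adjusted P = 0.301), and it fell by 0.93 in HSA-LR against WT quadriceps (SE 0.27, adjusted P = 0.0496).

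**Figure D3:**
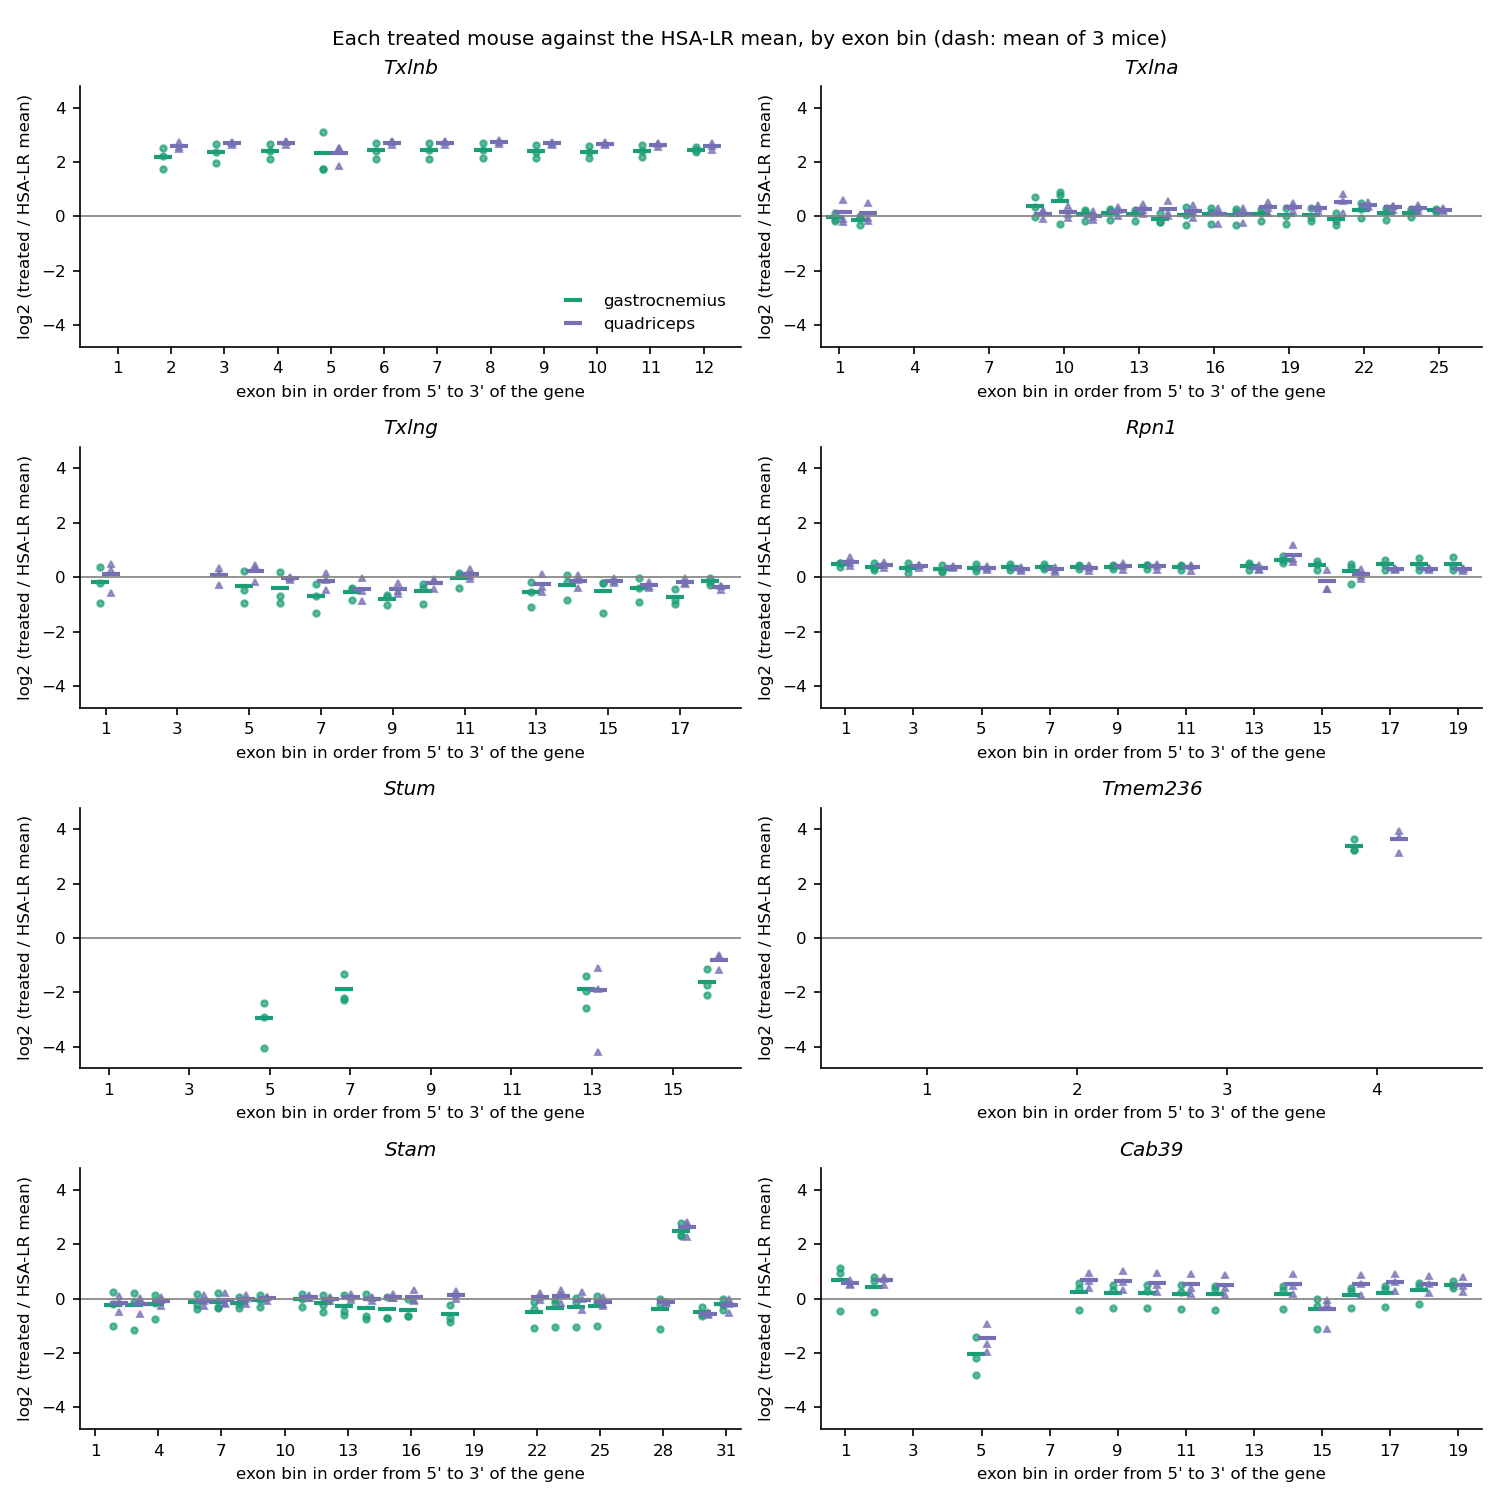
Log2 ratio of each treated mouse to the HSA-LR mean (y axes) for every exon bin with at least 100 counts over the 9 libraries of a muscle, in order from 5′ to 3′ of each gene (x axes); points are the 3 treated mice (circles gastrocnemius, triangles quadriceps), dashes the ratio of the group means. Bin numbers follow the plus strand, so position 16 of Stum is its bin 1. Txlnb is shifted along its length, Tmem236 is seen through its last bin, Stam lies far above 0 at bin 29 alone and Cab39 lies lowest at bin 5.

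Neither paralog was called by edgeR in a treated contrast. Txlna (ENSMUSG00000053841.15, chr4:129626078-129641065, minus strand) had 25.8, 23.2 and 25.4 CPM in WT, 20.8, 23.8 and 20.95 in HSA-LR and 24.8, 26.3 and 21.4 in treated gastrocnemius, and these groups overlapped. The quadriceps had 24.1, 23.4 and 24.9 CPM in WT, 20.8, 23.9 and 20.8 in HSA-LR and 27.7, 25.3 and 25.1 in treated mice, where the treated libraries lay just above the others. The log2 FC of treated against HSA-LR mice was 0.15 ± 0.10 in the gastrocnemius (adjusted P = 0.403) and 0.26 ± 0.09 in the quadriceps (adjusted P = 0.106), and DESeq2 called the latter (adjusted P = 0.0462). Against WT mice it was -0.04 ± 0.10 (adjusted P = 0.933) and 0.11 ± 0.09 (adjusted P = 0.616). Without treated mouse 3 the gastrocnemius value against WT mice was 0.04.

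Txlng (ENSMUSG00000038344.14, chrX:162778919-162829454, minus strand) had 8.86, 9.06 and 9.34 CPM in WT, 8.70, 10.9 and 11.9 in HSA-LR and 8.63, 9.70 and 6.99 in treated gastrocnemius. Quadriceps levels were 11.9, 11.46 and 9.42 CPM in WT, 11.4, 12.2 and 10.9 in HSA-LR and 10.1, 10.2 and 8.71 in treated mice. The treated and HSA-LR libraries did not overlap in the quadriceps and did in the gastrocnemius. Against HSA-LR mice the treated log2 FC was -0.31 ± 0.15 (adjusted P = 0.261) in the gastrocnemius and -0.24 ± 0.11 (adjusted P = 0.207) in the quadriceps, on the other side of 0 from Txlna. Against WT mice it was -0.11 ± 0.15 (adjusted P = 0.858) and -0.17 ± 0.11 (adjusted P = 0.575), and without treated mouse 3 the gastrocnemius value was 0.01. Txlng is X-linked and overlaps Rbbp7 on the opposite strand.

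Across the 4 treated contrasts 0 of the 2 paralogs were called by edgeR, with 1 at an unadjusted P under 0.05, Txlna in the quadriceps against HSA-LR mice. The shares of all genes called were 10% against HSA-LR and 1.04% against WT mice in the gastrocnemius, and 13.8% and 1.41% in the quadriceps. Of their exon bins, 0 of 34 were called in each contrast by diffSpliceDGE, which tests a bin against the rest of its gene. The shares of all bins called were 0.309% and 0.0654% in the gastrocnemius and 0.168% and 0.0353% in the quadriceps, against HSA-LR and WT mice in turn. Bin 8 of Txlng against WT mice in the gastrocnemius was the 1 paralog bin at an unadjusted P under 0.05 in these contrasts. In the bins with at least 100 counts, the treated to HSA-LR fold ran from 0.923 to 1.47 in the gastrocnemius and from 1.02 to 1.45 in the quadriceps for Txlna, and from 0.578 to 0.979 and from 0.735 to 1.17 for Txlng.

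Tmem236 (ENSMUSG00000061531.8, chr2:14174523-14221993, plus strand) was near the limit of detection outside the treated mice. In the gastrocnemius it had 17, 22 and 39 counts in WT, 17, 20 and 20 in HSA-LR and 173, 216 and 124 in treated libraries. In the quadriceps it had 22, 11 and 26 counts in WT, 21, 9 and 17 in HSA-LR and 133, 242 and 208 in treated libraries. All treated libraries were above all others, although the highest level, 2.04 CPM, remained far under that of Txlnb. Against HSA-LR mice the treated log2 FC was 3.26 ± 0.29 in the gastrocnemius and 3.64 ± 0.44 in the quadriceps, and against WT mice 2.91 ± 0.29 and 3.27 ± 0.42. Leaving out WT mouse 3 moved the gastrocnemius value against WT mice to 3.26.

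Most Tmem236 counts came from its last exon in every group. This exon, bin 4, makes up 3126 of the 3659 exon bases of the gene. Its mean share of the counts was 91.8% in WT, 86.7% in HSA-LR and 94.8% in treated gastrocnemius. In the quadriceps the mean share was 95.7%, 92.7% and 93.8%. Bin 4, the 3126-base exon with the 3′ UTR, held 162, 203 and 120 of the counts in treated gastrocnemius and 122, 230 and 197 in treated quadriceps. Over the 3 treated gastrocnemius libraries bin 1, with the annotated start, held 1 count and bin 2 held 8, and over the 3 treated quadriceps libraries they held 0 and 7. The fold of treated over HSA-LR in bin 4 was 10.5 in the gastrocnemius and 12.4 in the quadriceps, and bins 1 to 3 each had fewer than 100 counts. Too few bins passed the filter for a bin test. Tmem236 lies 24.9 kb beyond the end of Stam on the same strand. The predicted gene Gm37499 lies between them, 0.186 kb past Stam, and had 0.23 ± 0.06 CPM in HSA-LR and 0.19 ± 0.04 in treated gastrocnemius, a log2 FC of -0.25 ± 0.33 (adjusted P = 0.695).

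Stam (ENSMUSG00000026718.17, chr2:14074098-14149634, plus strand) was picked for a part of the gene, since its sum differed little. In the gastrocnemius it had 16.2, 15.2 and 16.1 CPM in WT, 17.1, 16.0 and 16.8 in HSA-LR and 14.6, 16.8 and 11.7 in treated mice. The quadriceps level was 17.0, 17.3 and 14.1 CPM in WT, 18.8, 17.9 and 17.3 in HSA-LR and 18.8, 16.9 and 17.96 in treated mice. The groups overlapped in both muscles, and in the gastrocnemius the lowest value was that of treated mouse 3 with the low 5′ coverage. Against HSA-LR mice the treated log2 FC was -0.20 ± 0.12 in the gastrocnemius and -0.0049 ± 0.10 in the quadriceps, and against WT mice it was -0.14 ± 0.12 and 0.15 ± 0.10.

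Within Stam the treated mice differed at the 3′ end, where the annotation gives alternative last exons. Stam-201 ends in bin 29, which runs on from the exon of bin 28 for 2488 bases, whereas Stam-202 and Stam-209 splice past it to bin 30, the exon with the CTG run. Bin 29 held 34, 42 and 49 counts in WT, 34, 27 and 26 in HSA-LR and 155, 195 and 110 in treated gastrocnemius. The quadriceps bin held 40, 35 and 35 counts in WT, 26, 36 and 40 in HSA-LR and 151, 233 and 221 in treated mice. Its treated to HSA-LR fold was 5.63 and 6.17, and it was the only Stam bin with every treated library above both groups. The next highest folds among the 22 Stam bins with at least 100 counts were 0.980 and 1.11.

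The exon with the CTG run went the other way. Bin 30, the largest bin of Stam, held 455, 535 and 521 counts in WT, 513, 516 and 454 in HSA-LR and 422, 313 and 260 in treated gastrocnemius. It was at 451, 432 and 394 counts in WT quadriceps, 448, 590 and 455 in HSA-LR and 321, 320 and 327 in treated mice. On the CPM scale every treated library was below both groups in each muscle, with a treated to HSA-LR fold of 0.715 and 0.679, and no other Stam bin was. Over all genes, 1.69% of bins with at least 100 counts lay below both groups in the gastrocnemius and 1.35% in the quadriceps. As a share of all Stam counts, bin 30 took 23.5% ± 1.02 in HSA-LR and 19.9% ± 4.26 in treated gastrocnemius, and 22.6% ± 0.865 and 15.4% ± 0.447 in the quadriceps (SD, n = 3). In treated gastrocnemius mouse 3 the share was 22.8%, and without that mouse the mean difference from HSA-LR mice went from -3.65 to -5.10 percentage points, while without treated mouse 2 it was -1.20. Bin 31, the distal UTR of Stam-202, had a treated to HSA-LR fold of 0.865 and 0.849, and these groups overlapped. Its treated to WT fold was 0.658 and 0.684 without overlap, and its HSA-LR to WT fold was 0.761 and 0.805.

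Set against the counts of the 3 end bins together, the share of bin 29 was 5.25%, 5.79% and 6.61% in WT, 4.97%, 4.13% and 4.52% in HSA-LR and 22.8%, 32.99% and 24.1% in treated gastrocnemius. In the quadriceps it was 6.23%, 5.83% and 6.29% in WT, 4.44%, 4.83% and 6.51% in HSA-LR and 26.7%, 36.8% and 33.4% in treated mice. The treated libraries stood apart from both other groups in each muscle, and mouse 3 was not the highest in either.

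**Figure D4:**
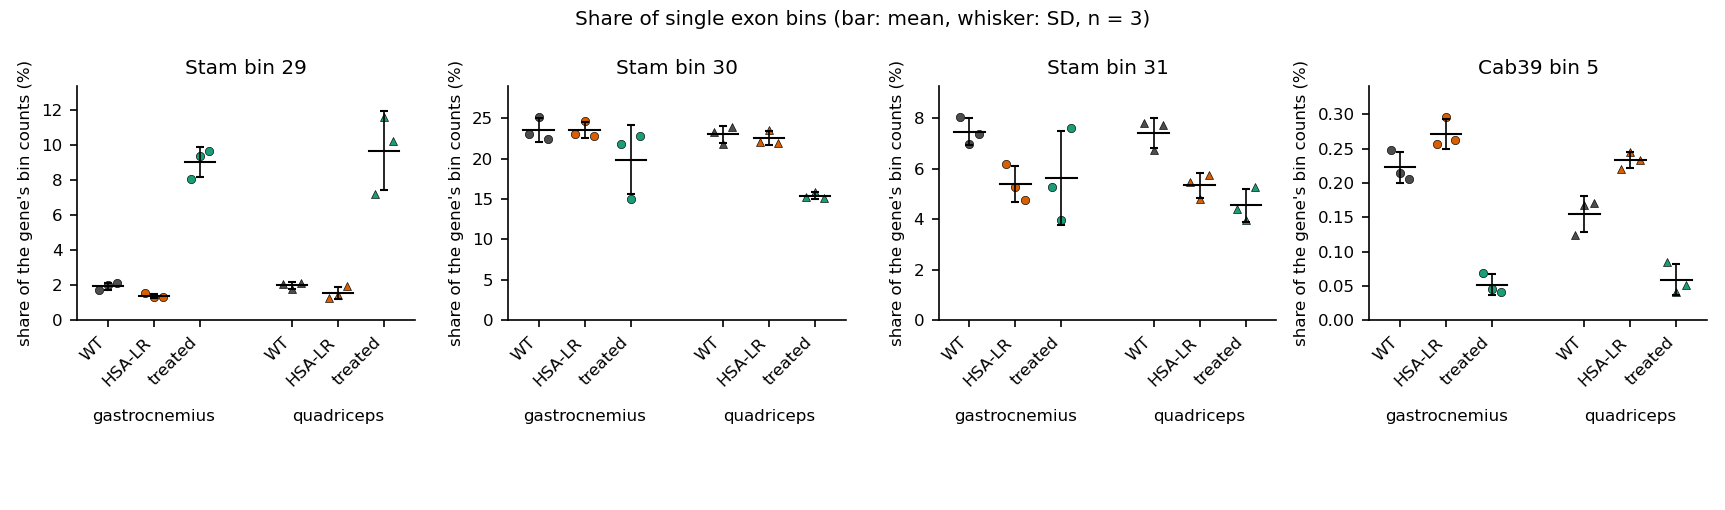
Share of all exon bin counts of the gene (%, y axes from 0) for Stam bins 29, 30 and 31 and Cab39 bin 5 in the 18 libraries; bars are means and whiskers SD of 3 mice. Stam bin 29 is higher and Cab39 bin 5 lower in every treated library than in the others of its muscle, while the treated libraries of Stam bin 30 stand apart in the quadriceps alone.

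Cab39 (ENSMUSG00000036707.16, chr1:85793441-85851576, plus strand) also differed within the gene. Its sum was 161.7, 150.8 and 188.0 CPM in WT, 126.0, 118.9 and 157.8 in HSA-LR and 198.4, 179.3 and 127.6 in treated gastrocnemius. In the quadriceps it was 148.4, 151.0 and 170.0 CPM in WT, 117.6, 114.2 and 143.1 in HSA-LR and 178.1, 224.9 and 146.7 in treated mice. Treated and WT libraries overlapped in each muscle, and treated and HSA-LR libraries overlapped in the gastrocnemius. Treated against HSA-LR mice, the log2 FC was 0.34 ± 0.17 and 0.56 ± 0.16, and against WT mice 0.01 ± 0.17 and 0.23 ± 0.15.

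Bin 5 of Cab39, the alternative 5′ UTR exon with the run of 7 CTG, was the exception. It held 49, 45 and 56 counts in WT, 42, 46 and 49 in HSA-LR and 18, 10 and 5 in treated gastrocnemius. For the quadriceps the bin held 21, 29 and 34 counts in WT, 28, 39 and 40 in HSA-LR and 17, 11 and 9 in treated mice. The treated to HSA-LR fold was 0.246 in the gastrocnemius and 0.365 in the quadriceps, whereas the other 13 bins with at least 100 counts ran from 0.761 to 1.62 and from 0.770 to 1.61. Bin 5 was the only Cab39 bin with every treated library below both groups. In treated gastrocnemius its log2 ratio to the HSA-LR mean was -1.41, -2.17 and -2.82, the last in mouse 3 with the low 5′ coverage. The share of bin 5 in the gene was small, at 0.272% ± 0.0218 in HSA-LR and 0.0513% ± 0.0152 in treated gastrocnemius, and 0.233% ± 0.0119 and 0.0591% ± 0.0232 in the quadriceps. Leaving out 1 mouse at a time kept the gastrocnemius difference in share between -0.229 and -0.208 percentage points. Bins 1 and 2, the 5′ UTR exon of the other start (Cab39-202 and Cab39-203), had folds of 1.62 and 1.33 in the gastrocnemius and 1.49 and 1.61 in the quadriceps. The treated libraries of these bins overlapped WT in both muscles and HSA-LR in the gastrocnemius. Over the WT mean their folds were 0.913 and 0.910 in the gastrocnemius and 1.07 and 1.19 in the quadriceps. The last exon, bins 18 and 19, held the most counts, 48478 in bin 18 and 46457 in bin 19 over the 9 quadriceps libraries.

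Rpn1 (ENSMUSG00000030062.7, chr6:88084482-88105304, plus strand) was modestly higher in treated mice, along most of the gene. In the gastrocnemius it had 99.2, 91.2 and 72.7 CPM in WT, 97.5, 99.0 and 96.2 in HSA-LR and 118.7, 133.1 and 135.0 in treated mice. In the quadriceps it had 92.5, 86.9 and 76.2 CPM in WT, 93.8, 91.7 and 100.1 in HSA-LR and 114.3, 125.2 and 123.7 in treated mice. The treated libraries were above both groups in each muscle. Treated against HSA-LR mice, the log2 FC was 0.41 ± 0.11 and 0.35 ± 0.09, and against WT mice 0.55 ± 0.11 and 0.51 ± 0.09. Of 18 bins with at least 100 counts, 16 in the gastrocnemius and 14 in the quadriceps lay above both groups, with a median fold over HSA-LR of 1.31 and 1.27. Over all genes, 1.49% and 2.51% of such bins did. The lowest fold was 1.17 in bin 16 in the gastrocnemius and 0.897 in bin 15 in the quadriceps. Bins 1 and 2, which share the run of 3 CTG, had folds of 1.40 and 1.31 in the gastrocnemius and of 1.48 and 1.37 in the quadriceps.

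Stum (ENSMUSG00000053963.7, chr1:180432387-180483504, minus strand) was lower in treated mice. In the gastrocnemius it had 164, 246 and 160 counts in WT, 216, 234 and 236 in HSA-LR and 81, 48 and 56 in treated libraries. In the quadriceps it had 83, 119 and 103 counts in WT, 110, 146 and 65 in HSA-LR and 41, 30 and 43 in treated libraries. On the CPM scale the treated libraries lay below all others of their muscle, at 0.386 to 0.613 CPM in the gastrocnemius and 0.252 to 0.366 in the quadriceps. Treated against HSA-LR mice, the log2 FC was -1.78 ± 0.24 and -1.41 ± 0.30, and against WT mice -1.42 ± 0.24 and -1.44 ± 0.30.

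The 5′-most bins of Stum held few or no counts in all groups. Bins 14 and 15, the annotated first exon of the coding transcripts Stum-201 and Stum-202, held at most 6 and 2 counts in any library, and bin 16 held 0 in all 18. The largest bin was the 5296-base 3′ UTR, bin 1, with 90, 104 and 108 counts in HSA-LR and 32, 23 and 35 in treated gastrocnemius. All 4 bins with at least 100 counts in the gastrocnemius lay below both groups, beside 1.69% of such bins over all genes. Their folds over HSA-LR ran from 0.129 in bin 12, an internal exon of noncoding transcripts, to 0.328 in bin 1. The fold of bin 12 rests on 8 counts over the 3 treated libraries, 1 to 4 in each. In the quadriceps the 2 such bins had folds of 0.263 in bin 4 and 0.571 in bin 1, and treated bin 1 lay below WT and overlapped HSA-LR. With bin 1 in place of the sum, the quadriceps log2 FC was -0.79 against HSA-LR and -0.67 against WT mice. Gm37984, a predicted gene on the same strand, overlaps Stum.

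The exons in which Stam and Cab39 differed in treated mice were not called between HSA-LR and WT mice. For the members, 108 bins of 7 genes were tested in the gastrocnemius and 102 in the quadriceps, and diffSpliceDGE called 0 in each, against 0.819% and 0.284% of all bins. Limma voom with diffSplice also called 0 in each. At an unadjusted P under 0.05 there was 1 bin in the gastrocnemius, Stam bin 31, with a log2 difference from the rest of the gene of -0.46 (adjusted P = 1.0), and none in the quadriceps. For Stam bin 29 the log2 difference was -0.48 and -0.35, for Stam bin 30 0.01 and -0.02, and for Cab39 bin 5 0.28 and 0.58, each with an adjusted P of 1.0.

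The 2 muscles were compared in contrasts that did not pick the genes tested, though the pick used the same libraries. Between the quadriceps and the gastrocnemius of WT mice 0 of 8 passed, while 0.297% of all genes did. Stum had the smallest P, with a log2 FC of -0.67 ± 0.26 (adjusted P = 0.440), and was the 1 gene of the 8 under an unadjusted 0.05. DESeq2 called 0 of 8. The main fits of the 2 muscles took the libraries as independent and did not pair those of a mouse. With the mouse as a block, 0 of 8 were called between the WT muscles as well. The HSA-LR against WT contrast differed between the muscles in 0 of 8 genes, with 0% of 16167 genes called, 710 genes at an unadjusted P under 0.05 and 24 genes called by DESeq2, none of them a member. For Txlnb the difference of the log2 FC was -0.28 ± 0.14 (adjusted P = 1.0). The treated against HSA-LR contrast differed in 0 of the 2 paralogs, again with 0% of genes called, 1271 genes at an unadjusted P under 0.05 and 26 called by DESeq2.

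Genes whose products work with those of the picked genes were read in the same contrasts. Of 28 genes listed for the oligosaccharyltransferase, ESCRT-0, the LKB1 complex and the syntaxins with their partners, 25 were analysed here and 24 were tested. Against WT mice 0 of 24 were called in treated gastrocnemius and 0 in treated quadriceps, with 3 and 1 at an unadjusted P under 0.05 and 1 and 0 called by DESeq2. Over all genes, 1.04% and 1.41% were called in these contrasts. Against HSA-LR mice 1 was higher and 1 lower in the gastrocnemius, and 4 were lower in the quadriceps, where 10% and 13.8% of all genes were called. Between HSA-LR and WT mice 2 were higher and 1 lower in the gastrocnemius, and 3 higher and 2 lower in the quadriceps, beside 15.5% and 20.3% of all genes. The median log2 FC of the 24 in treated against HSA-LR mice was 0.03 and -0.04, beside -0.0043 and -0.01 over all genes.

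Among the 11 other subunits of the oligosaccharyltransferase, 0 of 11 were called higher in a treated contrast, and at an unadjusted P under 0.05 there was 1 against HSA-LR mice in the gastrocnemius, 2 in the quadriceps and 0 against WT mice. Ddost, a subunit of the core complex, rose in HSA-LR against WT quadriceps (log2 FC 0.37 ± 0.07, adjusted P = 0.00843) and fell by 0.23 in treated against HSA-LR quadriceps (SE 0.07, adjusted P = 0.0741). Ost4, a small subunit, fell by 0.31 in that contrast (SE 0.07, adjusted P = 0.0371). In the LKB1 list Stk11, which encodes LKB1 itself, rose in treated against HSA-LR gastrocnemius (log2 FC 0.34 ± 0.10, adjusted P = 0.0728). For ESCRT-0, Hgs, the partner of Stam, was tested and had a log2 FC of 0.01 and -0.06 in treated against HSA-LR mice.

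The neighbours of the 8 genes on the chromosome were read likewise. The nearest 2 tested genes on each side gave 29 genes, of which 0 were called against WT mice in each treated muscle, with 3 and 3 at an unadjusted P under 0.05 and 3 and 2 called by DESeq2. Against HSA-LR mice 3 were lower in the gastrocnemius, and 4 were lower and 1 higher in the quadriceps, beside the 10% and 13.8% of all genes. Between HSA-LR and WT mice 5 were higher and 3 lower in the gastrocnemius, and 7 higher and 4 lower in the quadriceps, beside 15.5% and 20.3%. The neighbours named next were called in treated against HSA-LR mice, and none of them by edgeR in treated against WT mice. Mrc1, the mannose receptor of macrophages, lies 7.40 kb beyond Tmem236. It fell by 0.70 in the gastrocnemius (SE 0.15, adjusted P = 0.0344) and by 1.16 in the quadriceps (SE 0.20, adjusted P = 0.0150). The 6 macrophage markers summed to 73.5 to 95.9 CPM in HSA-LR and 38.3 to 55.7 in treated quadriceps. In the gastrocnemius these markers overlapped, at 62.6 to 72.9 CPM in HSA-LR and 40.8 to 69.2 in treated mice, and their part in the Mrc1 values was not tested. Slc39a12, a zinc transporter, lies 166.3 kb beyond Tmem236 and fell by 3.38 and 3.43 (adjusted P = 0.00967 and 0.0119) after a rise in HSA-LR mice. Gm37894 fell in the gastrocnemius by 1.33 (adjusted P = 0.0930). In the quadriceps Heca, 22.9 kb from Txlnb, rose by 0.35 (adjusted P = 0.0903), Iqcc near Txlna fell by 0.29 (adjusted P = 0.0887) and Gm5069 near Stum fell by 0.88 (adjusted P = 0.0314).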

How the data were processed

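The authors made stranded RNA libraries and deposited, for each exon bin, an unscaled count of read pairs. CASAVA, HISAT, featureCounts 1.5.0 and the build GRCm38 are named in the submitters' processing notes. Bins (391858) were summed to 46725 genes, of which 46520 had a symbol, and entries naming no gene (2.82 to 4.14% of counts) were left out. No column of another sample was present (0). Within each muscle all 9 libraries were fitted without a block by edgeR 4.0.16 (TMM, filterByExpr with a minimum count of 10 and total of 15, quasi-likelihood test) in R 4.3.3, and calls were made at a Benjamini-Hochberg adjusted P under 0.1. The comparisons of the 2 muscles used all 18 libraries. Levels are CPM, log2 CPM used a prior count of 2, and bins were tested with diffSpliceDGE. DESeq2 1.42.0, limma 3.58.1, upper-quartile and DESeq2-type scaling, no filter, the largest bin in place of the sum, a replicate block and leaving out each mouse were alternatives. Tables and figures were made with pandas 2.3.3, matplotlib 3.10.9 and numpy 2.4.6 under Python 3.11.15.

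The members and gene lists were chosen with earlier results of these data known. By the rule for named genes these were the 8 members, listed and neighbouring genes called in a treated contrast (or the one with the smallest P of its list), and the 5 genes most like Txlnb. Genes overlapping or lying between members were named for their position, outside that rule. The bins named are the largest of each gene and those with the longest CTG run, and the others were chosen after their values were seen. P-values set a difference against a spread among the libraries of these mice, shared by all groups of a fit and moderated over genes. Same-numbered libraries of one muscle did not deviate together (median r 0.00130 over 18 pairs, from -0.231 to 0.255), so they were not paired. The 2 muscles of a same-numbered mouse did (median r 0.215 over 9 pairs, from 0.0645 to 0.511). The main fits of the 2 muscles did not use this pairing, which was an alternative. Precision rests on the counts given, and the depth is stated with the results. Stam2, Strada and Stx4 were not analysed here. Some results of the listed genes are not reported here.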

Additional observations from a re-analysis of the deposited data

How the results depend on the processing

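Of the counts of calls, 159 values under the alternatives stayed within 1.5 times the main one and 20 did not. The number of members called between HSA-LR and WT gastrocnemius (main 0) ran from 0 to 1 when mice were omitted singly, and was 1 without treated mouse 3. For the paralogs in the treated quadriceps contrasts (main 0) that range was 0 to 1, reached without HSA-LR mouse 2, and the count was 2 with the largest bin of each gene and 1 with DESeq2. The partner genes called over the 3 gastrocnemius contrasts (main 5) ran from 0 without HSA-LR mouse 1 or 2 to 11 without treated mouse 3, and numbered 2 without a filter and 10 with DESeq2. In the quadriceps (main 9) they ran from 1 without HSA-LR mouse 1 to 7. The neighbours called in the gastrocnemius (main 11) ran from 4 without HSA-LR mouse 1 to 12, and in the quadriceps (main 16) from 11 to 18. The cause of these moves was not tested.

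Against WT gastrocnemius the Txlna log2 FC turned from -0.04 to 0.044 (adjusted P = 0.880) and that of Txlng from -0.11 to 0.0124 (adjusted P = 0.980) without treated mouse 3, the ranges over the omitted mice being -0.10 to 0.044 and -0.22 to 0.0124. With the largest bin in place of the sum, Stam was at -0.54 against HSA-LR in both muscles and at -0.44 and -0.40 against WT gastrocnemius and quadriceps, the last from 0.15, that bin being the exon with the CTG run.

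With the replicate number as a block, the number of partner genes called in the gastrocnemius went from 5 to 3, while Txlnb in HSA-LR against WT quadriceps was at -0.52 (adjusted P = 0.0212). The block rests on the replicate number alone. The pairing check found no shared deviation between same-numbered samples of a muscle, though so few pairs cannot exclude one. Low counts limit Tmem236, Stum and Cab39 bin 5, whose libraries held as few as 9, 30 and 5 counts.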

Other observations

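The genes whose levels varied most like those of Txlnb over the 18 libraries, among 15263 genes, were Tmem236 (Pearson r 0.963), Kcnj10 (0.950), Creld1 (0.898), Fam220a (0.892) and Preb (0.877). These correlations are a description over points that include the treated libraries and that share libraries and mice. Tmem236 was itself picked for its treated values. Kcnj10 passed the count filter only through the treated libraries, so no support is drawn from the place of either gene. Creld1 had 41.5 ± 2.14 CPM in WT, 39.0 ± 2.65 in HSA-LR and 55.9 ± 7.12 in treated gastrocnemius (SD, n = 3). Preb, a guanine nucleotide exchange factor of exit from the endoplasmic reticulum, had 94.8 ± 10.8, 96.5 ± 2.55 and 122.5 ± 6.87 CPM, and Fam220a 50.3 ± 4.93, 43.1 ± 1.76 and 64.4 ± 7.81 CPM. Kcnj10, an inwardly rectifying potassium channel, had 0.0344, 0.0159 and 0.103 CPM, near the limit of detection. The longest CTG run was 1 triplet in Fam220a and 2 triplets in each of the other 4.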
